A study of Mus musculus with 9 samples.

Results

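The perineuronal matrix genes described here are 9: the lecticans Acan, Bcan, Ncan and Vcan, the tenascins Tnc and Tnr, and the link proteins Hapln1, Hapln2 and Hapln4. They were taken by gene symbol, each on 1 row, out of 53924 named rows, and all 9 had enough counts to test among 16634 tested genes. Perineuronal nets are sheaths of matrix around certain neurons, in the cerebellum mainly around large neurons of the deep nuclei. In such a net, hyaluronan made at the cell surface carries lecticans (chondroitin sulfate proteoglycans), link proteins hold the 2 together, and tenascins join lecticans to one another. The same families also form the looser matrix between cells, around synapses and at nodes of Ranvier. Glia make much of it: Tnc is made by astrocytes and Bergmann glia, Bcan mainly by astrocytes, and Vcan largely by oligodendrocyte precursors, while Acan and Hapln1 are made by the enwrapped neurons.

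Total RNA of mouse cerebellum was sequenced in bulk in 9 libraries, 3 per group. PLX3AP mice were given PLX3397, an inhibitor of the CSF1 receptor that depletes microglia, and then 3-acetylpyridine (3-AP). 3AP mice were given 3-AP alone, a toxic relative of nicotinamide that kills inferior olive neurons, the source of climbing fibres to Purkinje cells. Control mice were given saline. The labels give no strain, age, sex, dose or time, and do not say whether each library is a separate animal, so that p-values measure the spread between these libraries, which may be technical. A group given PLX3397 alone was not analysed here.

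Library totals ran from 18452256 to 22358447 estimated counts. CPM below are estimated counts as a share of the library total, scaled between libraries by TMM, TPM are the authors' values per transcript length, and log2 fold changes are those of a model fitted to all tested genes (edgeR, called at a Benjamini-Hochberg adjusted p under 0.05). Pcp2, a defining Purkinje cell gene, had 2621 to 3670 TPM in all libraries, and Gabra6, of granule cells, 341 to 486 TPM. The summed CPM of 10 microglia markers was 91.2 to 144 in PLX3AP, 309 to 370 in 3AP and 159 to 175 in control.

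Tnc had the lowest adjusted p of the 9 genes, 2.9e-05, and was lower after 3-AP in both treated groups. In 3AP against control, 3 of the 9 fell (Tnc, Vcan and Bcan) and 0 rose by edgeR, where 1.18% of all tested genes fell, 3.75% rose and 4.93% did either. At an unadjusted p under 0.05 there were 5 members in either direction, and DESeq2 called 4, Hapln2 as well. Of 28555 genes with counts, DESeq2 called 1024 here, 745 in PLX3AP against 3AP and 104 in PLX3AP against control. The share of all tested genes with an unadjusted p under 0.05 is not given here. In PLX3AP against 3AP, Bcan rose and 0 fell by edgeR, where 0.577% of all tested genes rose, 3.16% fell and 3.73% did either; 2 members had an unadjusted p under 0.05 and DESeq2 called 1. Against control, Tnc fell in PLX3AP and 0 rose by edgeR, where 0.0842% of all tested genes fell, 0.0361% rose and 0.12% did either; 5 members had an unadjusted p under 0.05 and DESeq2 called 2. All 3AP libraries lay below all control libraries for 5 members and above them for 0, where this held for 11.0% and 13.6% of all tested genes, 24.7% either way. PLX3AP libraries lay above all 3AP libraries for 2 members and below them for 0, where this held for 7.66% and 9.22% of all tested genes, 16.9% either way. They lay below all control libraries for 4 members and above them for 1, where this held for 6.42% and 7.86% of all tested genes, 14.3% either way. The median log2 fold change of the 9 was -0.37 in 3AP against control, -0.02 in PLX3AP against 3AP and -0.26 in PLX3AP against control, beside 0.001, -0.008 and 0.001 over all tested genes. The 9 were chosen with results of these libraries known, and the comparisons share libraries: each group stands in 2 of the 3.

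**Figure D1:**
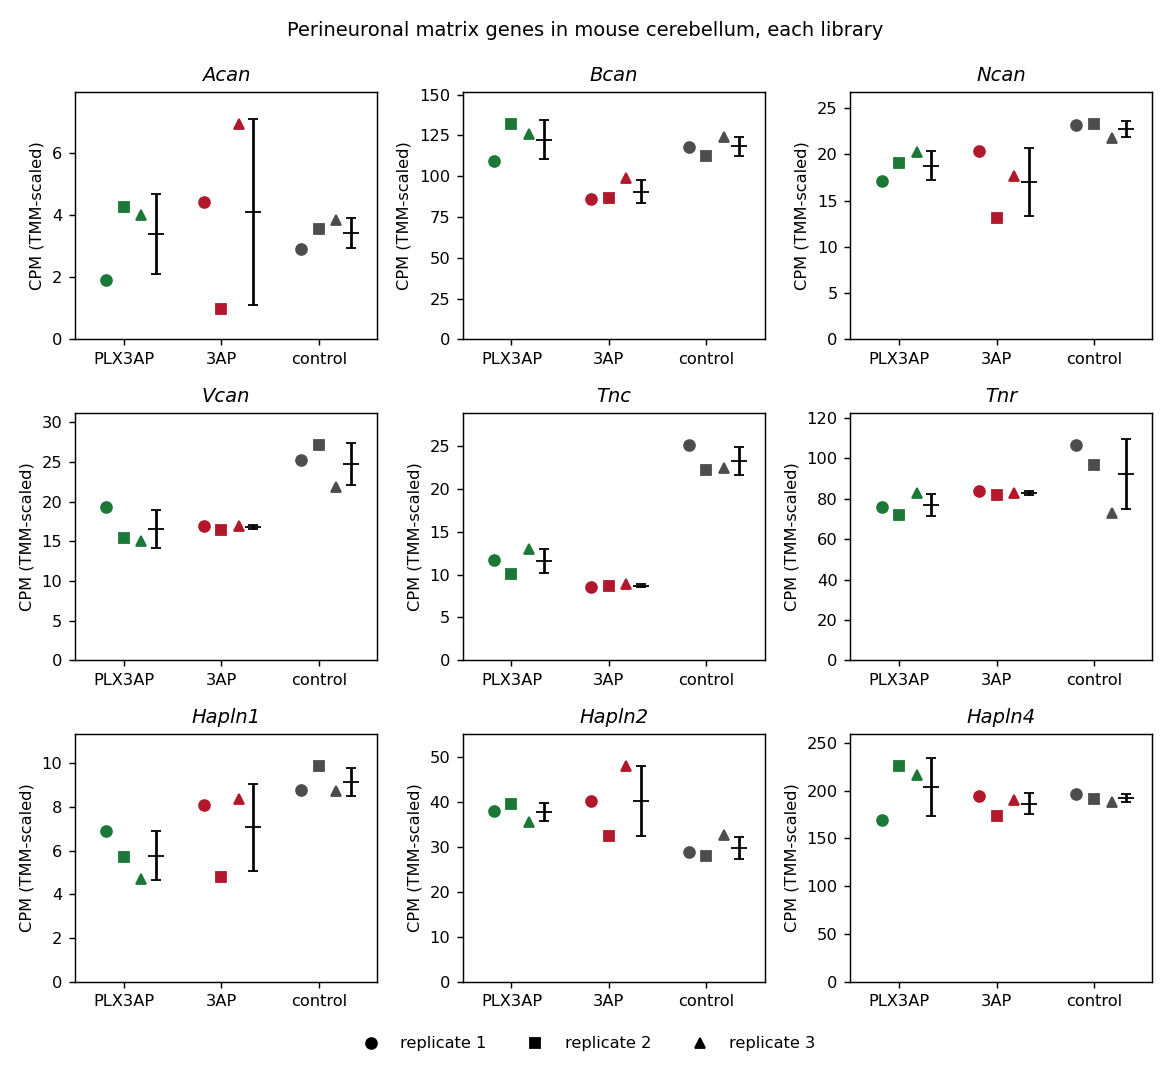
CPM (TMM-scaled, linear axes from 0) of each gene in each library of the PLX3AP, 3AP and control groups, with the mean and SD of 3 libraries beside the points. Control points of Tnc (22.1 to 25.05 CPM) lie above all 6 others (8.49 to 12.9 CPM), Bcan is low in the 3AP libraries, and Acan has 1 low 3AP library at 0.974 CPM.

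The promoters of the 3 genes that fell in 3AP are shown because these are the members called in that comparison; in the other comparisons their values differed. RefSeq's table (GRCm38.p6) held windows of 250 bases before to 50 bases after the start for 8 of the 9 genes, with a second start for Tnc. They lie at chr4:64046966-64047265 (Tnc, the upstream start), chr13:89742463-89742762 (Vcan) and chr3:88000307-88000606 (Bcan), all on the minus strand. Sequences run 5′ to 3′ along the gene's strand, and capitals mark matches, on either strand, to the TATA box TATAAA, the GC box GGGCGG and the CCAAT box CCAAT, none of which overlap here.
Tnc: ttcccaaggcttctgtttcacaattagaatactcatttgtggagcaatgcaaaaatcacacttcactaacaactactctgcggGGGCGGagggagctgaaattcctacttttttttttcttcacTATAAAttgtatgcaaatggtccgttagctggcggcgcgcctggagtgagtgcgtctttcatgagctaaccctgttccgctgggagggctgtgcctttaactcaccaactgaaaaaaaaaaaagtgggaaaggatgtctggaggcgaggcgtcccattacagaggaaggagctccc
Vcan: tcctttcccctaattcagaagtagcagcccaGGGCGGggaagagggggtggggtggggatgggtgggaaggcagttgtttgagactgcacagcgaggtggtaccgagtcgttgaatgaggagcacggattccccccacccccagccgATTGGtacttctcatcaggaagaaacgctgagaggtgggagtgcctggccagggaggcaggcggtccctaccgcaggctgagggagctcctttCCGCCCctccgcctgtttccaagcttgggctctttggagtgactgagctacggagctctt
Bcan: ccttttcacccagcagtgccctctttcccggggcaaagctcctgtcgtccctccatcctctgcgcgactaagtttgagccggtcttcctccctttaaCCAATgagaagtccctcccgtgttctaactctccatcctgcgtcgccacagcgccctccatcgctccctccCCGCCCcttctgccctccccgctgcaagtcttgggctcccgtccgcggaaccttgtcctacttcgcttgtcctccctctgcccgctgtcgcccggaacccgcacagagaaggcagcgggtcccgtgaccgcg
Each of the 3 windows holds a GC box, as do 35.7% of all 32851 promoter windows in that table. The Tnc window holds the letters TATAAA (13.6% of all windows) and no CCAAT box. These letters begin 126 bases before the start of the printed window and 205 before the second start. Only exact letters were searched. The like letters TATATAA in the window of the second Tnc start, which is not printed, were therefore not matched. Whether any of these letters act as a TATA box was not tested. The windows of Vcan and Bcan hold a CCAAT box (37.4% of all windows) and not the letters TATAAA. The letters of an AP-1 site (TGACTCA or TGAGTCA, in 5.2% of all windows) and of a STAT site (TTCNNNGAA, in 8.3% of all windows) stand in none of the windows of the 8 genes.

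Tenascin-C (Tnc) is a many-armed glycoprotein that glia make in development and after injury. It is encoded on chromosome 4 from 63959785 to 64047015 (mm10, minus strand). It had 11.7, 10.1 and 12.9 CPM in PLX3AP replicates 1, 2 and 3, 8.49, 8.72 and 8.87 CPM in 3AP, and 25.05, 22.1 and 22.4 CPM in control. No library of one group overlapped another group: the control libraries were highest, the 3AP libraries lowest with an SD of 0.192 CPM, and the PLX3AP libraries between. Tnc fell 2.67-fold in 3AP against control (log2 fold change -1.41, SE 0.12, 3 libraries per group, edgeR adjusted p 2.9e-05). In PLX3AP against control it fell 2.00-fold (log2 fold change -1.004, SE 0.12, edgeR adjusted p 0.0038). It was among 14 genes that fell in this comparison. The PLX3AP and 3AP libraries differed by a log2 fold change of 0.41 (SE 0.12), which did not pass (edgeR adjusted p 0.10).

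The fall of Tnc in 3AP passed under every alternative that was run, with adjusted p up to 0.0018. The fall in PLX3AP against control did not pass on TPM with limma-trend (adjusted p 0.11 and 0.12). The transcript annotated on the opposite strand across Tnc, 8030451A03Rik, had at most 1 count in any library.

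Tenascin-R (Tnr), which cross-links lecticans in nets and is made by oligodendrocytes and some neurons, did not pass in any comparison. It had 75.9, 72.0 and 83.0 CPM in PLX3AP, 84.1, 82.1 and 82.9 CPM in 3AP, and 107, 96.8 and 73.0 CPM in control. The groups overlapped, and control replicate 3 lay below all 3AP libraries. The log2 fold changes were -0.15 (SE 0.12) in 3AP against control, -0.11 (SE 0.12) in PLX3AP against 3AP and -0.26 (SE 0.12) in PLX3AP against control, and the edgeR adjusted p was 0.58, 0.80 and 0.53. Within each library, Tnr CPM over Tnc CPM was 6.42 to 7.14 in PLX3AP, 9.34 to 9.91 in 3AP and 3.26 to 4.37 in control, with no overlap between groups.

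Brevican (Bcan), the main lectican of adult brain and a product chiefly of astrocytes, is encoded on chromosome 3 from 87987531 to 88000230. It had 109, 132 and 126 CPM in PLX3AP, 86.2, 86.5 and 98.7 CPM in 3AP, and 118, 112 and 124 CPM in control. All 3AP libraries lay below the 6 others, and the PLX3AP and control libraries overlapped. Bcan fell 1.31-fold in 3AP against control (log2 fold change -0.39, SE 0.09, edgeR adjusted p 0.022) and rose 1.35-fold in PLX3AP against 3AP (0.44, SE 0.09, edgeR adjusted p 0.012). PLX3AP and control differed by 0.05 (log2, SE 0.09, edgeR adjusted p 0.89). The fall in 3AP did not pass without control replicate 1 (adjusted p 0.082), control replicate 3 (0.069), 3AP replicate 1 (0.12) or 3AP replicate 2 (0.099), nor on TPM (0.26). The rise in PLX3AP against 3AP did not pass without 3AP replicate 1 (adjusted p 0.082), 3AP replicate 2 (0.064), PLX3AP replicate 2 (0.075) or PLX3AP replicate 3 (0.055), nor on TPM (0.12).

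Versican (Vcan) is a large lectican spliced into forms with and without its chondroitin sulfate domains, and is encoded on chromosome 13 from 89655312 to 89742509. It had 19.3, 15.4 and 15.0 CPM in PLX3AP, 16.9, 16.5 and 17.0 CPM in 3AP, and 25.3, 27.1 and 21.9 CPM in control. All control libraries lay above the 6 others, and the PLX3AP and 3AP libraries overlapped. Vcan fell 1.48-fold in 3AP against control (log2 fold change -0.56, SE 0.12, edgeR adjusted p 0.016). The estimate in PLX3AP against control was of like size (-0.58, SE 0.12) and did not pass (edgeR adjusted p 0.12), while the adjusted p was 0.0098 with DESeq2, 0.010 without a filter on low counts and 0.032 without PLX3AP replicate 1. PLX3AP and 3AP differed by -0.02 (log2, SE 0.12, edgeR adjusted p 0.97). The fall in 3AP did not pass without control replicate 1 (0.074), control replicate 2 (0.087), 3AP replicate 1 (0.069) or 3AP replicate 2 (0.071).

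On TPM, which also scale by transcript length, the groups of Vcan overlapped. It had 4.15, 4.67 and 5.84 TPM in PLX3AP, 3.00, 4.60 and 4.45 TPM in 3AP, and 4.38, 5.90 and 3.58 TPM in control, and 3AP against control did not pass (limma-trend, adjusted p 0.80). The number of estimated counts behind 1 TPM rises with the mean length of the transcripts a gene's reads were assigned to. With libraries rescaled to one another, it was 91.1, 67.4 and 55.6 for Vcan in PLX3AP, 114, 75.1 and 78.8 in 3AP, and 118, 93.0 and 115 in control. All PLX3AP libraries lay below all control libraries, and the 3AP libraries overlapped the other groups. Over the 9 libraries the highest of these values was 2.12 times the lowest for Vcan, 2.19 times for Hapln1 and 1.60 times for Acan, but 1.005 to 1.147 times for the 6 other genes. Among 10461 tested genes with at least 5 TPM in every library the median was 1.097 times, and 5.53% of them passed 1.5 times. Transcript-level values were not used here. An antisense gene annotated within the span of Vcan, Gm4117, had 1.74 ± 0.939 CPM in PLX3AP, 2.22 ± 0.554 in 3AP and 1.84 ± 0.339 in control (SD, n = 3 each).

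**Figure D2:**
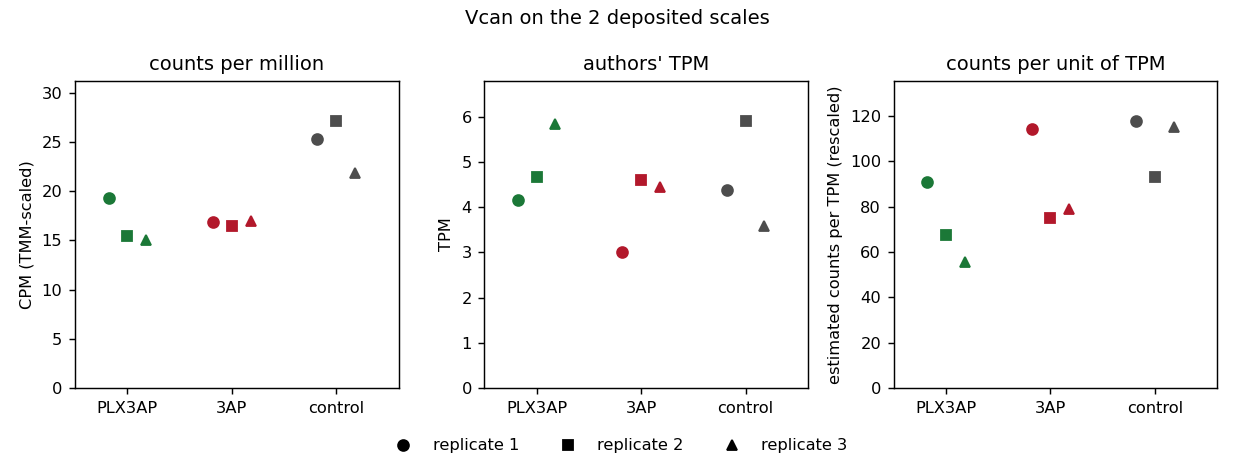
Vcan in each library of the PLX3AP, 3AP and control groups as CPM, as the authors' TPM, and as estimated counts per TPM after rescaling of libraries (linear axes from 0). The control libraries stand above the others on CPM (21.9 to 27.1) and overlap them on TPM (3.58 to 5.90).

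Neurocan (Ncan), a lectican of neurons and astrocytes that is most abundant in the developing brain, did not pass. It had 17.1, 19.1 and 20.2 CPM in PLX3AP, 20.3, 13.1 and 17.6 CPM in 3AP, and 23.2, 23.3 and 21.7 CPM in control. All control libraries lay above the 6 others. The log2 fold change was -0.42 (SE 0.14, edgeR adjusted p 0.13) in 3AP against control, and -0.26 without 3AP replicate 2. It was -0.27 (SE 0.14, edgeR adjusted p 0.56) in PLX3AP against control and 0.14 (SE 0.14, edgeR adjusted p 0.78) in PLX3AP against 3AP.

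Aggrecan (Acan), the lectican that defines most nets around neurons, was the least expressed of the 9. It had 35, 94 and 84 estimated counts in PLX3AP, 90, 20 and 143 in 3AP, and 59, 69 and 79 in control. On CPM these were 1.92, 4.25 and 4.01 in PLX3AP, 4.42, 0.974 and 6.93 in 3AP, and 2.90, 3.54 and 3.85 in control. The 3AP group held both the lowest and the highest library. The log2 fold change was 0.26 (SE 0.57, edgeR adjusted p 0.87) in 3AP against control, 0.73 without 3AP replicate 2 and -0.34 without 3AP replicate 3. No difference in Acan was detectable at this depth and spread.

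The low 3AP library was also low in 2 markers, chosen after their values were seen, of neurons of the cerebellar nuclei. Slc17a6, the vesicular glutamate transporter VGLUT2 of these neurons (and of climbing fibres, whose RNA lies in the olive), had 61.7, 67.8 and 49.7 CPM in PLX3AP, 86.0, 20.9 and 96.8 CPM in 3AP, and 78.6, 82.0 and 72.0 CPM in control. Meis2, a transcription factor of the nuclei, had 20.3, 20.6 and 20.3 CPM in PLX3AP, 30.1, 5.41 and 31.2 CPM in 3AP, and 22.9, 26.2 and 22.9 CPM in control. In each of these genes 3AP replicate 2 was the lowest of the 9 libraries. Of the 10 markers of nuclei and hindbrain neurons 5 could be tested, and the summed CPM of the 10 was 121 to 150 in PLX3AP, 121 to 255 in 3AP and 144 to 154 in control. Spp1, which microglia also make and which rose in 3AP (log2 fold change 1.28, SE 0.21, edgeR adjusted p 0.0077), held 92.2 of the 121 CPM in 3AP replicate 2. Markers of hindbrain outside the cerebellum, Hoxa5, Hoxb5, Hoxb3 and Chat among them, were at 0 in at least 1 library. In 3AP replicate 2 Hoxb5 had 7 counts and Hoxb3 10, each the highest of the 9 libraries, Chat had 11, the highest of the 3AP group, and Hoxa5 had 0. The part of these neurons in the values of Acan was not tested.

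**Figure D3:**
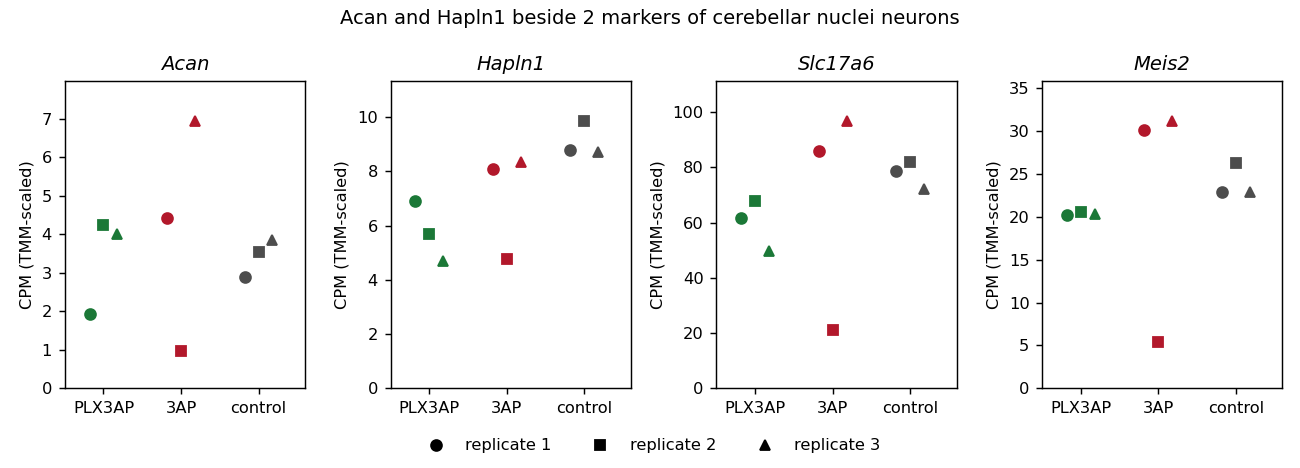
CPM (linear axes from 0) of Acan, Hapln1 and the markers Slc17a6 and Meis2 in each library of the PLX3AP, 3AP and control groups, with a symbol per replicate. In 3AP replicate 2 (square), Acan stands at 0.974, Slc17a6 at 20.9 and Meis2 at 5.41 CPM, each the lowest of the 9 libraries.

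Hapln1, the link protein that neurons make to stabilise their nets, did not pass in any comparison. It had 6.92, 5.69 and 4.68 CPM in PLX3AP, 8.10, 4.77 and 8.34 CPM in 3AP, and 8.79, 9.86 and 8.73 CPM in control. The control libraries lay above the 6 others, and 3AP replicate 2 was again the lowest of its group. The log2 fold change was -0.67 (SE 0.21, edgeR adjusted p 0.35) in PLX3AP against control and -0.30 (SE 0.22, edgeR adjusted p 0.68) in PLX3AP against 3AP. In 3AP against control it was -0.37 (SE 0.21, edgeR adjusted p 0.42), and -0.15 without 3AP replicate 2.

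Hapln2, the link protein of nodes of Ranvier on myelinated axons, was the member with the largest positive estimate in 3AP against control. It had 38.1, 39.5 and 35.6 CPM in PLX3AP, 40.2, 32.4 and 48.0 CPM in 3AP, and 28.9, 28.0 and 32.6 CPM in control. The PLX3AP libraries lay above all control libraries, and 3AP replicate 2 lay just under control replicate 3. In 3AP against control the log2 fold change was 0.43 (SE 0.12), which did not pass with edgeR (adjusted p 0.076) and passed with DESeq2 (0.043), without a filter on low counts (0.013) and without 3AP replicate 2 (0.016). Between PLX3AP and control it was 0.34 (SE 0.13, edgeR adjusted p 0.44). Of 10 markers of mature oligodendrocytes, which make Hapln2, Opalin fell in 3AP against control (log2 fold change -0.96, SE 0.14, edgeR adjusted p 0.0016) and 0 rose. Over all tested genes 1.18% fell and 3.75% rose there. The summed CPM of the 10 markers was 7191 to 8060 in PLX3AP, 5786 to 7020 in 3AP and 6412 to 8179 in control.

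Hapln4, the link protein that accompanies brevican around neurons of the cerebellar nuclei and their synapses, was the most expressed of the 9. It had 169, 226 and 217 CPM in PLX3AP, 195, 174 and 190 CPM in 3AP, and 197, 192 and 189 CPM in control. The groups overlapped, and the control libraries had an SD of 4.13 CPM. The log2 fold changes were -0.05 (SE 0.10) in 3AP against control, 0.13 (SE 0.10) in PLX3AP against 3AP and 0.08 (SE 0.10) in PLX3AP against control, and the edgeR adjusted p was 0.86, 0.70 and 0.82.

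**Figure D4:**
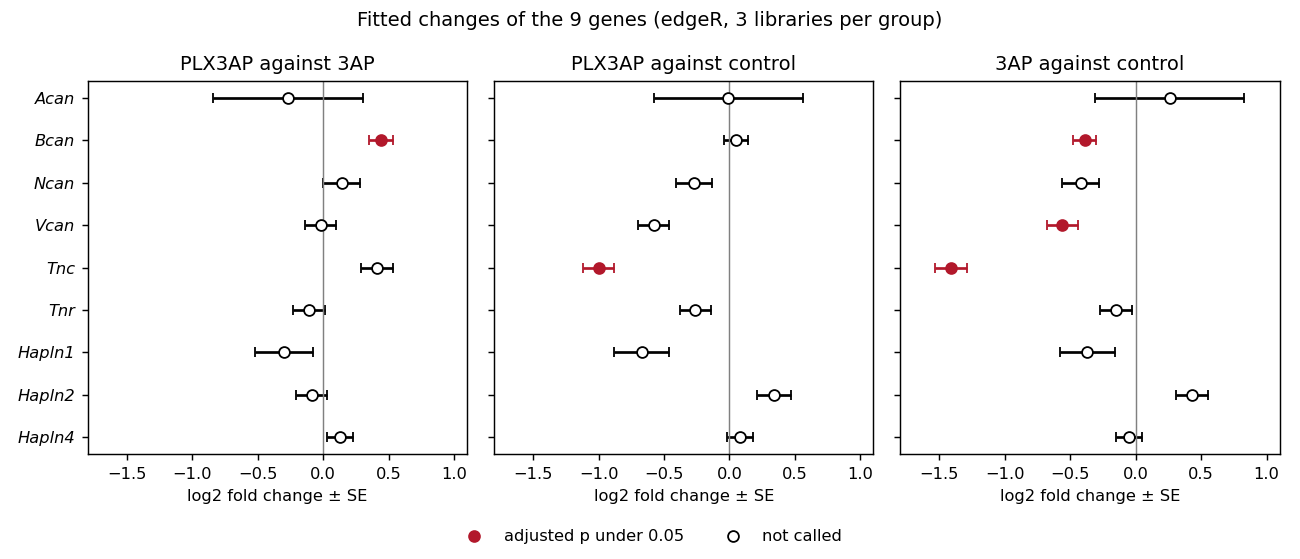
Fitted log2 fold changes of the 9 genes with their SE (x axis) in PLX3AP against 3AP, PLX3AP against control and 3AP against control, 3 libraries per group. Filled red points passed an adjusted p of 0.05: Bcan at 0.44, Tnc at -1.004, and Tnc, Vcan and Bcan at -1.41, -0.56 and -0.39.

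In the mouse genome each lectican gene lies next to a link protein gene with no protein-coding gene between them (GENCODE M21, mm10). Bcan and Hapln2 are 21.5 kb apart on chromosome 3, Ncan and Hapln4 2.2 kb on chromosome 8, Vcan and Hapln1 43.7 kb on chromosome 13, and Acan ends 2 bases from Hapln3 on chromosome 7. Hapln3 was too low to test, with 19 counts over the PLX3AP libraries, 24 over 3AP and 16 over control. In 3AP against control the log2 fold changes of neighbours had opposite signs for Bcan (-0.39) and Hapln2 (0.43), and the same sign for Vcan (-0.56) and Hapln1 (-0.37) and for Ncan (-0.42) and Hapln4 (-0.05); of these only Bcan and Vcan passed. Hapln2 CPM over Bcan CPM was 0.349, 0.299 and 0.282 in PLX3AP, 0.466, 0.375 and 0.486 in 3AP, and 0.244, 0.249 and 0.263 in control. The 3 groups did not overlap on this ratio, with 3AP highest and control lowest. On TPM the ratio was 0.394 to 0.455 in PLX3AP, 0.485 to 0.621 in 3AP and 0.332 to 0.345 in control. The ratios of the other tested pairs did not part all groups. Hapln1 CPM over Vcan CPM was 0.311 to 0.37 in PLX3AP, 0.290 to 0.491 in 3AP and 0.348 to 0.399 in control. Hapln4 CPM over Ncan CPM was 9.89 to 11.8 in PLX3AP, 9.58 to 13.3 in 3AP and 8.25 to 8.68 in control. How often ratios of other genes part the groups was not tested.

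Levels between genes were compared per transcript length. In control the order of mean TPM was Hapln4 at 91.0 ± 5.06, Bcan at 71.4 ± 3.67, Hapln2 at 24.2 ± 1.69, Tnr at 12.8 ± 2.74, Hapln1 at 6.74 ± 1.95, Tnc at 6.57 ± 0.644, Ncan at 5.09 ± 0.399, Vcan at 4.62 ± 1.18 and Acan at 0.827 ± 0.102 (SD, n = 3). The ranges of neighbours in that order overlapped between Hapln1 and Tnc and between Ncan and Vcan, and not elsewhere. In 3AP, Tnc stood eighth at 2.56 ± 0.0737 TPM, with all its libraries below those of Ncan, at 3.96 ± 0.787 TPM. In PLX3AP it also stood eighth, at 3.38 ± 0.553 TPM, overlapping Hapln1 at 3.72 ± 1.65 TPM. Bcan made up most of the lectican TPM in every library: 87.4 to 89.0% in PLX3AP, 85.3 to 88.0% in 3AP and 85.0 to 88.5% in control. The 4 lecticans summed to 73.4 to 96.8 TPM in PLX3AP, 62.9 to 74.3 in 3AP and 79.2 to 85.9 in control. All 3AP libraries lay below all control libraries on this sum, which is mostly Bcan. The fall of Bcan in 3AP did not pass on TPM (limma-trend, adjusted p 0.26). On TPM the 3AP and control libraries of Ncan, Vcan and Acan overlapped, and the Acan mean was higher in 3AP (1.24 TPM).

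**Figure D5:**
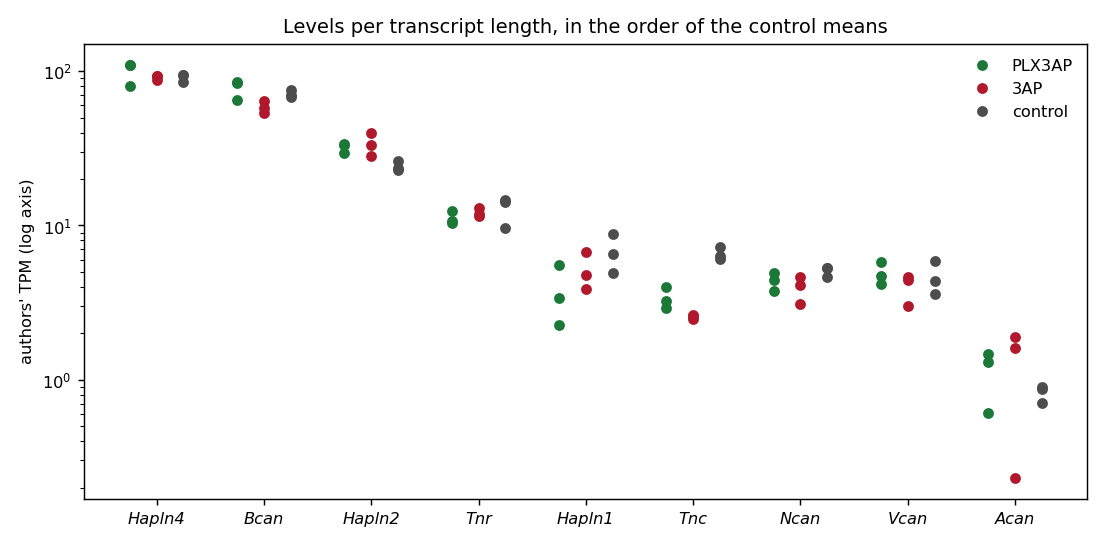
The authors' TPM of each gene in each library (log axis), ordered by the control mean, with PLX3AP, 3AP and control side by side. Hapln4 and Bcan stand highest in every group (91.0 and 71.4 TPM in control) and Acan lowest (0.827 TPM in control).

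Genes that build, cut or bind the matrix were read from lists chosen for their function. Of 21 tested genes for chondroitin sulfate chains, which give lecticans their charge, edgeR called 0 in each comparison, as did DESeq2 and limma-trend on TPM. An unadjusted edgeR p under 0.05 was found for 2 of them in 3AP against control, 1 in PLX3AP against 3AP and 2 in PLX3AP against control. Their median log2 fold change was -0.02, 0.03 and -0.02 in these comparisons. Of 11 tested genes for hyaluronan, 2 rose and 0 fell in 3AP against control, where 3.75% of all tested genes rose and 1.18% fell. Among the 2 was Hyal1, a lysosomal hyaluronidase (log2 fold change 0.62, SE 0.15, edgeR adjusted p 0.028). In PLX3AP against 3AP, 1 of the 11 fell and 0 rose, where 3.16% of all tested genes fell and 0.577% rose. The Hyal1 call did not pass when any 1 of control replicates 1, 2 or 3 or 3AP replicates 1 or 2 was left out (adjusted p 0.077 to 0.11), nor on TPM (0.086 and 0.093). EdgeR and DESeq2 called 0 of the 11 in PLX3AP against control, where 3 had an unadjusted edgeR p under 0.05. Their median log2 fold change was 0.13 in 3AP against control, -0.13 in PLX3AP against 3AP and 0.09 in PLX3AP against control. The hyaluronan synthase genes did not pass: Has3 was at 2.98 ± 0.472 CPM in PLX3AP, 3.53 ± 0.848 in 3AP and 2.96 ± 0.155 in control (SD, n = 3 each), and Has2 was too low to test.

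Among 16 proteases that cut lecticans and their inhibitors, 5 rose and 0 fell in 3AP against control, where 3.75% of all tested genes rose and 1.18% fell. The same 5 fell and 0 rose in PLX3AP against 3AP, where 3.16% of all tested genes fell and 0.577% rose. These 2 comparisons share the 3AP libraries. The 5 were Ctss (cathepsin S, of microglia), Timp1 (an inhibitor of metalloproteinases), Mmp3 (stromelysin), Adamts9 and Adamts1 (proteases that cleave versican). The median log2 fold change was 0.22 in 3AP against control, -0.27 in PLX3AP against 3AP and -0.03 in PLX3AP against control. Adamts1 had 19.1 ± 4.50 CPM in PLX3AP, 31.2 ± 5.74 in 3AP and 19.5 ± 0.123 in control, a log2 fold change of 0.68 (SE 0.16, edgeR adjusted p 0.033) in 3AP against control and -0.71 (SE 0.16, edgeR adjusted p 0.030) in PLX3AP against 3AP. Adamts9 had 3.63 ± 0.252 CPM in PLX3AP, 7.30 ± 0.690 in 3AP and 3.80 ± 0.339 in control (log2 fold changes 0.94, SE 0.17, and -1.01, SE 0.17). Mmp3 had 0 counts over the PLX3AP libraries, 305 over 3AP and 2 over control, and the 3AP libraries ranged from 1.79 to 9.03 CPM. Adamts4, the best known brevican-cleaving aggrecanase, had 50.4 ± 2.85 CPM in PLX3AP, 47.2 ± 1.18 in 3AP and 47.2 ± 7.05 in control and did not pass. Between PLX3AP and control, edgeR called 0 of the 16 (2 at an unadjusted p under 0.05), and DESeq2 called 1.

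Of 22 tested receptors and partners of the net, edgeR called 1 higher and 0 lower in 3AP against control. Over all tested genes 3.75% rose and 1.18% fell. DESeq2 called 2 of the 22 there, and limma-trend on TPM called 0. The call by edgeR was Itgav, the integrin chain alpha V that binds tenascin-C among others. It had 46.4 ± 3.64 CPM in PLX3AP, 57.0 ± 1.03 in 3AP and 42.9 ± 2.44 in control (log2 fold change 0.41, SE 0.08, edgeR adjusted p 0.0094). EdgeR and DESeq2 called 0 of the 22 in PLX3AP against 3AP (4 at an unadjusted edgeR p under 0.05) and in PLX3AP against control (2). Their median log2 fold change was -0.01 in 3AP against control, -0.07 in PLX3AP against 3AP and -0.06 in PLX3AP against control. Cd44, a hyaluronan receptor, had 8.96 ± 1.38 CPM in PLX3AP, 10.4 ± 2.61 in 3AP and 7.39 ± 0.400 in control. Ptprz1, a receptor phosphatase whose secreted form is the proteoglycan phosphacan, had 317 ± 14.0 CPM in PLX3AP, 284 ± 7.85 in 3AP and 336 ± 43.0 in control. Neither passed in any comparison.

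Markers of the glia that make these genes moved in part with the groups. In bulk RNA, fewer cells of a type and less RNA per cell cannot be told apart. Of 10 markers of oligodendrocyte precursors 2 fell in 3AP against control, Gpr17 and Cacng4, and 0 rose. Over all tested genes 1.18% fell and 3.75% rose there. Gpr17, of precursors about to mature, had 6.36 ± 1.31 CPM in PLX3AP, 7.08 ± 1.63 in 3AP and 24.4 ± 1.96 in control, and it fell in PLX3AP against control too (log2 fold change -1.94, SE 0.18, edgeR adjusted p 0.0011). Pdgfra, the defining receptor of these cells, had 18.1 ± 1.81 CPM in PLX3AP, 19.6 ± 2.29 in 3AP and 23.4 ± 1.23 in control and did not pass. The summed CPM of the 10 was 207 to 236 in PLX3AP, 181 to 217 in 3AP and 249 to 278 in control, and none of the 10 was at 0. Control lay above the other groups on this sum, as for Vcan, but single markers differed. Cacng4 rose in PLX3AP against 3AP (log2 fold change 0.55, SE 0.12, edgeR adjusted p 0.016), where Vcan differed by -0.02. In 3AP against control the estimates of Cspg4 (0.14) and Sox10 (0.08) were above 0 and did not pass. The part of these cells in the fall of Vcan was not tested.

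Of 12 markers of astrocytes and Bergmann glia, 4 fell (Hopx, Fabp7, Slc7a10 and Aqp4) and 1 rose (Gfap) in 3AP against control. Over all tested genes 1.18% fell and 3.75% rose there. Fabp7, a fatty acid carrier of Bergmann glia and other radial glia, had 16.0 ± 4.83 CPM in PLX3AP, 14.7 ± 3.62 in 3AP and 42.3 ± 4.76 in control. Its log2 fold change was -1.52 (SE 0.22, edgeR adjusted p 0.0033) in 3AP against control and -1.40 (SE 0.22, edgeR adjusted p 0.070) in PLX3AP against control. Hopx, a cofactor found in Bergmann glia, had 151 ± 8.10 CPM in PLX3AP, 101 ± 12.4 in 3AP and 170 ± 10.5 in control, and it fell in 3AP against control (-0.76, SE 0.09, edgeR adjusted p 0.00031) and rose in PLX3AP against 3AP (0.59, SE 0.09, edgeR adjusted p 0.0021). Gdf10, a defining Bergmann glia gene, did not pass in any comparison. The summed CPM of the 12 was 5724 to 6367 in PLX3AP, 5644 to 7252 in 3AP and 5901 to 6136 in control, and none was at 0. Aldoc alone held 2676 ± 260 CPM in PLX3AP, 2696 ± 436 in 3AP and 2444 ± 194 in control. The sum therefore says little about weaker genes such as Fabp7. The part of astrocytes and Bergmann glia in the values of Tnc and Bcan was not tested.

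The genes nearest to each called member in profile were found by the root mean square difference of log2 CPM over the 9 libraries, each gene centred on its own mean. For Tnc, whose libraries spanned 1.55 on the log2 scale, these included Mir670hg (a difference of 0.219) and Ntf3 (0.273). Ntf3, which encodes neurotrophin 3, had 5.76 ± 0.296 CPM in PLX3AP, 4.54 ± 0.705 in 3AP and 8.43 ± 0.361 in control. For Vcan, spanning 0.85, they were Bdnf (0.070), which encodes the neurotrophin BDNF, Dio2 (0.107), the deiodinase that makes active thyroid hormone, and Smim18 (0.107). For Bcan, spanning 0.61, they were Slc25a18 (0.068), a mitochondrial glutamate carrier, Slc6a9 (0.072), the glycine transporter GlyT1, and Ndrg1 (0.076).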

How the data were processed

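Bulk RNA-seq of total RNA from mouse cerebellum was used, in 9 libraries grouped by their titles (3 PLX3AP, 3 3AP and 3 control). The tools fastp, HISAT2, StringTie and RSEM and the build mm10 are named, with no order, in the submitters' processing notes. For tool versions, annotation, strand setting and filters the entry is: not given in the sources used here. Expected counts, as deposited by the authors, are RSEM-style estimated reads per gene without normalisation, in part not whole (28.7 to 30.8% of values above 0). The deposited TPM were scaled by the authors to transcript length and to 1 common total per library. Rows with no gene name (0.526 to 0.660% of counts) were left out.

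After rounding, the counts went into edgeR 4.0.16 (R 4.3.3). The default filterByExpr step kept 16634 genes, followed by TMM scaling (factors 0.986 to 1.02) and a robust quasi-likelihood fit with 1 term per group over all 9 libraries. P-values are two-sided and Benjamini-Hochberg adjusted over all tested genes of a comparison. The SE is the size of the log2 fold change over the square root of F. CPM come from the same rounded counts. Counting error and the spread of 3 libraries limit low genes such as Acan.

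The members and lists were chosen with earlier results of these data known. Named genes were the 9 members, up to 4 called genes per list and comparison by smallest p, and the 3 nearest profiles of each called member, and Hapln3 by its position; some genes that the rule selects are not reported here. Has3, Has2, Adamts4, Cd44, Ptprz1, Pdgfra, Gdf10, Slc17a6, Meis2, Aqp4, Adamts1, Pcp2 and Gabra6 fall outside that rule. So do Cspg4, Sox10, Aldoc, Chat, Hoxa5, Hoxb5, Hoxb3 and the genes overlapping members. All of these were chosen after their values were seen. Alternatives were RLE scaling, DESeq2 1.42.0, no filter, only the groups compared, each replicate left out, a replicate block, and limma-trend (limma 3.58.1) on log2(TPM + 1) and log2(TPM + 0.1). Coordinates are from GENCODE M21 and promoter sequences from RefSeq (GRCm38.p6, the same assembly).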

Additional observations from a re-analysis of the deposited data

How the results depend on the processing

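Of the members' log2 fold changes under the alternatives, 305 kept direction and side of the threshold, 20 lost the call, 6 gained it and 20 turned direction. Every turn was of a value that had not passed. In 3AP against control, Acan was -0.345 without 3AP replicate 3 (-0.345 to 0.725 over left-out replicates), and Hapln4 0.004 on TPM with either pseudocount. In PLX3AP against 3AP, Acan was 0.16 on log2(TPM + 0.1) and 0.33 without 3AP replicate 3 (range over left-out replicates -0.74 to 0.33), Ncan -0.019 without 3AP replicate 2 (-0.019 to 0.279), and Hapln2 0.044 without 3AP replicate 3 (-0.229 to 0.044). There Vcan was 0.29 on log2(TPM + 0.1), 0.24 on log2(TPM + 1), 0.027 without PLX3AP replicate 2 and 0.046 without PLX3AP replicate 3 (-0.148 to 0.046). In PLX3AP against control, Acan was 0.33 on log2(TPM + 0.1), 0.20 on log2(TPM + 1), 0.009 and 0.083 without control replicates 2 and 3 and 0.257 without PLX3AP replicate 1 (-0.205 to 0.257). There Vcan was 0.095 and 0.077 on log2(TPM + 0.1) and log2(TPM + 1), and without PLX3AP replicate 2 Bcan was -0.010 (-0.010 to 0.117) and Hapln4 -0.001 (-0.001 to 0.190). The causes were not tested.

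The count of members called in 3AP against control was 3, and 4 with DESeq2 or no filter (Hapln2 as well), and 1 on TPM with either pseudocount. With a replicate left out it was 1 to 3 (1 without 3AP replicate 1 or control replicate 1, 2 without 3AP replicate 2 or control replicates 2 or 3). In PLX3AP against 3AP it was 1, and 0 on TPM with either pseudocount, with 0 to 1 when a replicate was left out (0 without 3AP replicates 1 or 2 or PLX3AP replicates 2 or 3). For PLX3AP against control it was 1, and 2 with DESeq2 or no filter, 0 on TPM, and 1 to 2 when a replicate was left out (2 without PLX3AP replicate 1). Over all genes the calls were 820 in 3AP against control (466 to 798 with a replicate left out: 466 and 504 without 3AP replicates 1 and 2, 487 and 515 without control replicates 1 and 2) and 621 in PLX3AP against 3AP (401 to 715, with 401 without 3AP replicate 1). Between PLX3AP and control they were 20, and 104 with DESeq2, 71 with no filter, 9 on log2(TPM + 1), 10 with the replicate block, and 7 to 153 with a replicate left out (153, 7 and 13 without PLX3AP replicates 1, 2 and 3, and 8 without control replicate 1 or 2).

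Same-numbered libraries did not deviate together (correlations of deviations -0.203 to 0.093), and no pairing is stated. With the replicate number as a block, calls were 580, 504 and 10 in the 3 comparisons, against 820, 621 and 20 without it, and the member calls were the same genes. Depth bears on Acan, the member with the lowest mean level, at 20 to 143 counts per library, beside a spread between 3AP libraries of 72.8% (SD over mean, CPM).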
